A study of Saccharomyces cerevisiae with 10 samples.

Results

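The genes of the proteins of the small subunit of the cytosolic ribosome were followed in the yeast Saccharomyces cerevisiae. They were taken as the rows whose platform gene symbol is RPS, a number and an optional A or B. This gave 55 genes, with 1 row each, of 6259 genes or unnamed rows in all. They form 24 pairs of an A and a B copy, and 7 genes have a symbol with no A or B. Of the 55 genes 53 had enough values for the test across all genes.

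Strain DJ28 was compared with strain FY23 on 10 arrays with 2 dyes, and each array held RNA of both strains. Arrays 6 to 10 carried DJ28 in Cy5 beside FY23 in Cy3, and arrays 1 to 5 carried DJ28 in Cy3 beside FY23 in Cy5. The labels name PDE2, the gene of the high-affinity cyclic AMP phosphodiesterase, and the series title a mutant whose Ras/cAMP pathway is constitutively active. From what is known of the study DJ28 is a PDE2 deletion strain made from FY23, and the labels themselves do not spell out the genotypes. The sources used here give neither the growth conditions nor the number of cultures. The p-values therefore rest on the spread between arrays, and this spread may be technical.

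Arrays 6 and 7 correlated at r = 0.988, against at most 0.694 for any other pair of arrays, and their mean was counted as 1 replicate. This left 9 replicates, 4 with DJ28 in Cy5 and 5 with DJ28 in Cy3. Arrays 3 to 10 held between 5755 and 6048 values, array 2 held 4342 and array 1 held 2230. Of the 55 RPS genes 52 had a value on array 2 and 37 on array 1. Arrays 4, 5, 9 and 10 stand apart in that no other array holds values at the scale's upper limit. Results within them and within the remaining arrays are given where they differ.

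All values are log2 ratios after each array was centred on its median. A turned ratio is an array's ratio with the sign set to DJ28 over FY23. The deposited values do not say which dye is the numerator. It was taken as Cy5, the direction in which PDE2 (YOR360C) is lower in DJ28, by a log2 ratio of -1.96 ± 0.168 (standard error, limma adjusted p = 0.00153, lower on 8 of 8 replicates). This direction is likely but not settled, and under the opposite one every sign below would turn, for strains and for dyes alike.

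Ribosomal proteins of the small subunit surround the 18S rRNA, and together they hold the decoding centre where the codon of an mRNA meets its tRNA. In yeast most of these genes come in a pair of near-identical copies, and many are needed to cut and export the precursor of the rRNA. Their transcription is known to run together through Rap1, Fhl1, Ifh1 and Sfp1 and to follow nutrient signals carried by TOR and by protein kinase A. Copies of a pair can share signal on an array, since their coding sequences are much alike. The sources used here do not give the probe sequences, and how far copies share signal was not tested.

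On most arrays most RPS genes lay on the same side of 0, and the side differed between the dye orientations. Array 5 was split, and 5 genes ran apart from the rest. On the arrays with DJ28 in Cy5 the median turned ratio of the RPS genes was 1.67 on array 6, 1.66 on array 7, 0.93 on array 8, 0.48 on array 9 and 0.52 on array 10. With DJ28 in Cy3 it was -0.53 on array 1, -0.59 on array 2, -0.44 on array 3, -0.35 on array 4 and 0.12 on array 5. The first set of medians lies wholly above the second, and array 5 is the only array with DJ28 in Cy3 on which the median is above 0. The mean of these medians was 0.89 ± 0.54 with DJ28 in Cy5 (SD, n = 4 replicates) and -0.36 ± 0.28 with DJ28 in Cy3 (SD, n = 5). Read as Cy5 over Cy3, without turning, the same medians were above 0 on every array but array 5, where it was -0.12, whichever strain carried Cy5.

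**Figure D1:**
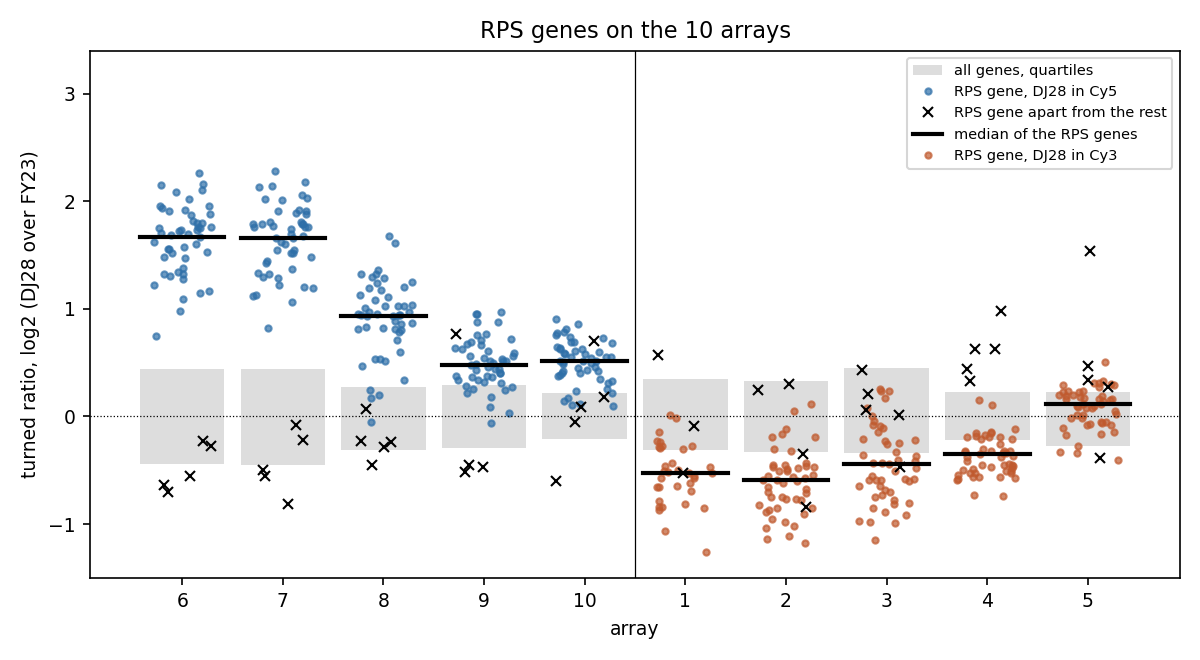
Turned log2 ratio of DJ28 over FY23 (vertical axis) of each RPS gene on each array (horizontal axis), with DJ28 in Cy5 on the left and in Cy3 on the right. Black bars are the medians of the RPS genes, grey boxes the quartiles of all genes, and crosses the 5 genes that ran apart from the rest. The medians run from 0.48 to 1.67 on the left and from -0.59 to 0.12 on the right.

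The spread of the RPS genes on an array was narrow beside its distance from 0 on the arrays with the largest medians. On array 6 the quartiles of the RPS genes were 1.32 and 1.82, where those of all genes were -0.44 and 0.44. On array 6, 48 of 53 RPS genes were above 0 in the turned ratio, and on array 10 it was 53 of 55. On array 1, 35 of 37 were below 0, and on array 2 it was 48 of 52. Array 5 was split, with 38 of 55 above 0 and 17 below.

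No RPS gene passed the test of the strain difference. In limma's moderated test with a dye term, 0 of 53 RPS genes had an adjusted p under 0.05 for DJ28 against FY23, where 0.549% of the 5642 genes tested were called. At an unadjusted p under 0.05, 15 of 53 RPS genes were higher in DJ28, where 5.96% of all genes were, and 1 was lower, where 417 of 5642 genes were. Of the 53 differences 50 were positive, where 3167 of 5642 were over all genes, and the 3 negative ones included those of RPS1A and RPS25B. Their median was 0.26, against 0.03 over all genes tested, and they ran from -0.34 to 0.52. The lowest adjusted p was 0.262, that of RPS14B. In this fit the 95% intervals reached at most 0.91 upward and -0.60 downward. A strain difference of 2-fold lay outside the interval of each of the 53 genes, while smaller ones did not all do so. The intervals are not adjusted for the number of genes. They also do not hold for every set of arrays, since RPS24A reached 1.00, or 2-fold, on arrays 4, 5, 9 and 10 alone.

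The strain median moved with the arrays used and was lowest without the near-identical arrays 6 and 7. Without both the median was 0.13 and 48 of 51 differences were positive, and without arrays 1 and 2 it was 0.33 with 50 of 53 positive. It was 0.18 on arrays 4, 5, 9 and 10 alone, with 52 of 53 positive, and 0.40 on the remaining arrays, with 35 of 37 positive. With array weights the median was 0.15, without array 5 it was 0.20 and without array 9 it was 0.34. RNA of a culture was measured in bulk, so fewer cells with a transcript and less of it per cell cannot be told apart.

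The test of the dye term called many RPS genes. It asks whether the centred ratio of Cy5 over Cy3, averaged over the orientations, differs from 0. It does not ask that Cy5 be brighter in each orientation, and brighter here is relative to the median of the array. Cy5 was brighter in 26 of 53 (limma, adjusted p under 0.05), where 2.82% of all genes tested were called in this direction, and Cy3 was brighter in 0. The dye term was positive in 48 of 53 RPS genes, with a median of 0.62 against -0.03 over all genes tested. In 40 of 53 the turned ratios did not overlap between the orientations, with each replicate above with DJ28 in Cy5, where this held for 8.40% of all genes. By contrast, 5 of 53 had ratios of Cy5 over Cy3 that were higher on each replicate with DJ28 in Cy5 than on any with DJ28 in Cy3, where 4.06% of all genes did. They included RPS9A, RPS14A, RPS17B and RPS20, named after their values were seen. A turned ratio above 0 on every replicate was found in 0 of 53 RPS genes and in 0.798% of all genes.

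The count of 26 rested on single arrays, and the calls over all genes moved with it. Without array 1 the test called 2 RPS genes of 19 genes in all, and without array 2 it called 2 of 18. Without array 3 it called 16 of 92, of which 15 were among the 26, and without array 8 it called 3 of 25. Without arrays 6 and 7 it called 3 of 25 genes in all, and without arrays 1 and 2 it called 0 of 5458 genes tested, RPS or other. On arrays 4, 5, 9 and 10 alone 0 RPS genes were called, where 16 of 5492 genes were. On the remaining arrays 31 of 37 RPS genes were called, where 351 of 2143 genes were. The median dye term stayed positive in these fits, at 0.31 on arrays 4, 5, 9 and 10 and 0.91 on the remaining arrays.

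**Figure D2:**
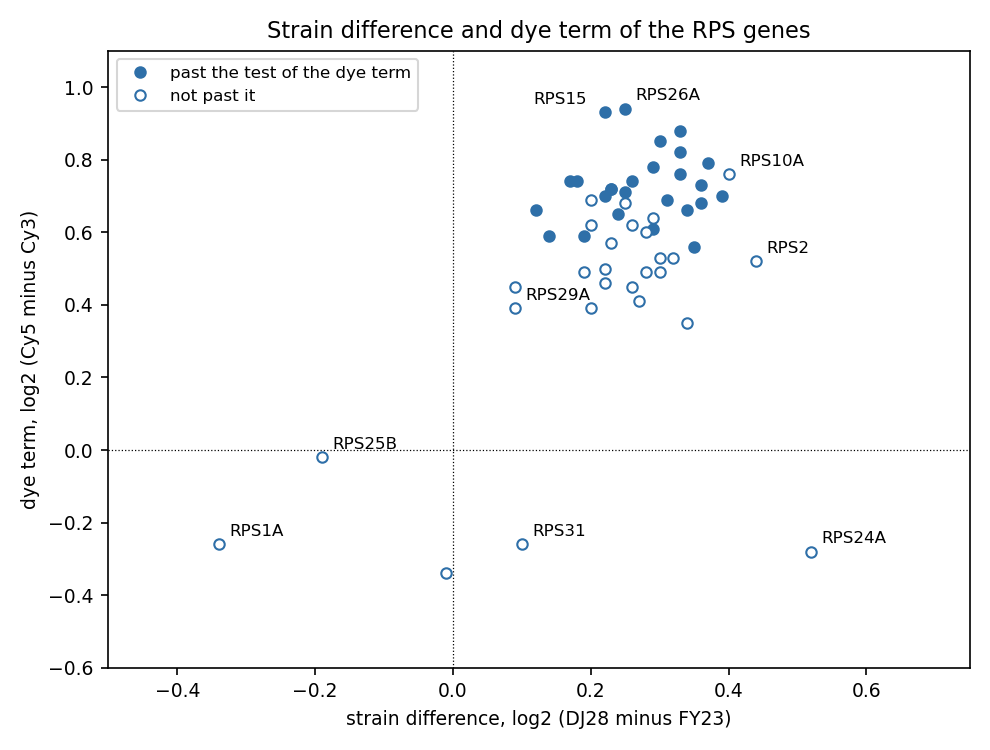
Strain difference of DJ28 minus FY23 (horizontal axis, log2) against the dye term of Cy5 minus Cy3 (vertical axis, log2) of the 53 RPS genes tested, with filled points past the test of the dye term. Except for 5 genes, RPS1A, RPS24A, RPS25B and RPS31 among them, the genes form a single group with dye terms from 0.35 to 0.94.

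The common pattern is that turned ratios were higher with DJ28 in Cy5. The genes given first were picked by the test of the dye term, so their separation follows from that choice. RPS27A (YKL156W), which encodes a zinc-binding protein of the subunit, had turned ratios of 1.54, 0.80, 0.61 and 0.86 with DJ28 in Cy5, arrays 6 and 7 as 1 mean and then arrays 8, 9 and 10. On arrays 1 to 5, with DJ28 in Cy3, they were -0.50, -0.77, -0.40, -0.48 and -0.27. The orientations do not overlap and lie on opposite sides of 0. Its dye term was 0.72, or 1.65-fold (standard error 0.110, limma adjusted p = 0.0164), and its strain difference 0.23 (adjusted p = 0.378). RPS14B (YJL191W) encodes a protein of the platform near the mRNA exit and is known to hold down its own expression. It had 1.65, 1.18, 0.95 and 0.58 with DJ28 in Cy5, against -0.23, -0.43, -0.59, -0.53 and -0.11 with DJ28 in Cy3, again on opposite sides of 0. On array 5, where RPS27A and RPS14B lie below 0, 38 of 55 RPS genes were above 0. The dye term of RPS14B was 0.73 (adjusted p = 0.0185) and its strain difference 0.36 with a standard error of 0.116 (adjusted p = 0.262).

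RPS26B (YER131W), whose protein lines the mRNA exit channel and is brought to the ribosome by the chaperone Tsr2, had 2.08, 1.29, 0.67 and 0.79 with DJ28 in Cy5. With DJ28 in Cy3 it had -0.87, -0.85, -0.65, -0.51 and 0.16, so array 5 alone crosses 0. RPS15 (YOL040C), whose protein is needed for export of the subunit from the nucleus, had 1.78, 1.68, 0.32 and 0.81 with DJ28 in Cy5 and -0.85, -1.14, -1.15, -0.41 and 0.01 with DJ28 in Cy3. In both genes the orientations do not overlap. The dye terms were 0.88 for RPS26B and 0.93 for RPS15, each with an adjusted p of 0.0286, and the highest of all called members was that of RPS26A at 0.94. RPS7A (YOR096W) had 2.09, 1.20, 0.77 and 0.61 with DJ28 in Cy5 and -0.65, -0.71, -0.51, -0.19 and -0.05 with DJ28 in Cy3, with a dye term of 0.79 and a strain difference of 0.37.

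The genes with no A or B in the symbol, which have no second copy under the same symbol, ran with the rest except for RPS31, and RPS13 could not be tested. RPS12 (YOR369C) had 1.80, 1.32, 0.95 and 0.55 with DJ28 in Cy5, against -0.57, -0.78, -0.99, -0.30 and 0.20 with DJ28 in Cy3. RPS3 (YNL178W), whose protein sits at the mRNA entry, had 2.14, 1.36, 0.52 and 0.31, against -0.55, -0.60, -0.55, -0.45 and 0.02. RPS20 (YHL015W) had 1.75, 1.04, 0.56 and 0.63 with DJ28 in Cy5 and, with no value on array 1, -0.49, -0.44, -0.53 and 0.19 with DJ28 in Cy3. In these 3 genes the orientations do not overlap, and array 5 is the lone array with DJ28 in Cy3 that is above 0.

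Their strain differences were 0.33 for RPS12, 0.33 for RPS3, 0.34 for RPS20, 0.22 for RPS15 and 0.44 for RPS2, each with an adjusted p of at least 0.298. RPS2 (YGL123W), known for its part in accurate decoding, had 1.54, 1.11 and 0.24 with DJ28 in Cy5, with no value on array 9, and -0.01, 0.12, -0.59, -0.21 and 0.30 with DJ28 in Cy3. Here the orientations overlap, since array 10 lies below array 5. RPS13 had too few values for the test, with 1.06, 0.20, 0.50 and 0.42 with DJ28 in Cy5 and only -0.37 and 0.24, on arrays 4 and 5, with DJ28 in Cy3. RPS22B was likewise not tested, with 0.37 and 0.11 on arrays 9 and 10 and 0.08, -0.12 and 0.15 on arrays 3, 4 and 5.

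RPS31 (YLR167W), which is made as a fusion with ubiquitin, went the other way. Its turned ratios were -0.15, -0.23, -0.45 and 0.18 with DJ28 in Cy5, against 0.57, 0.30, 0.06, 0.63 and 0.27 with DJ28 in Cy3. The higher values lie with DJ28 in Cy3, and array 10 overlaps with them. Its strain difference was 0.10 (adjusted p = 0.671) and its dye term -0.26 (adjusted p = 0.149).

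How far a gene ran from the rest was measured as the root mean square distance, over replicates, of its turned ratio from the median of the other RPS genes. This distance was 0.261 in the median and at least 0.925 in 5 genes, which included RPS24A, RPS1A, RPS31 and RPS25B, and the next highest was 0.486, that of RPS29A. The other 48 genes had strain differences from 0.09 to 0.44 with a median of 0.26, and dye terms from 0.35 to 0.94 with a median of 0.65. The 26 genes past the test of the dye term were all among these 48. The 5 genes were set apart by this distance after their values were seen, so it is a description with no test. For 4 of them the other copy of the pair ran with the rest, which the comparison of copies below shows for RPS1, RPS24 and RPS25.

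Copies A and B were compared within each array, and for most pairs they did not separate. Of the 24 pairs 23 were tested, and A minus B of the strain difference lay within 0.2 in 18 of them. The median was 0.02, with 14 pairs above 0 and 9 below, against a median of -0.00 over the 35 other A and B pairs of the table. Without regard to sign the median was 0.07 in the RPS pairs and 0.04 in the other pairs. Whether these sizes differ was not tested. In limma's test on A minus B over all 58 such pairs, 0 of 23 RPS pairs passed, where 0.00% of all pairs did. At an unadjusted p under 0.05 there was 1 RPS pair, that of RPS1, and it was 1 of 1 among all 58 pairs. As lists, the A copies had a median strain difference of 0.26 (24 tested) and the B copies of 0.25 (23 tested), with median dye terms of 0.64 and 0.57.

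The median standard error was 0.089 for A minus B and 0.151 for a single gene's strain difference. It was not smaller in every pair, and for RPS1 it was 0.195 for A minus B, against 0.119 for RPS1A and 0.155 for RPS1B. Among the pairs with narrow intervals, named after their values were seen, A minus B was -0.02 for RPS4, with a 95% interval from -0.15 to 0.11, and -0.05 for RPS30, from -0.18 to 0.08. These intervals leave out differences between copies beyond their ends and do not leave out smaller ones. The copies of a pair differed by a root mean square of 0.33 over replicates in the median of 23 pairs, against 0.39 for the 1355 combinations of RPS genes of different proteins, and whether these medians differ was not tested.

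**Figure D3:**
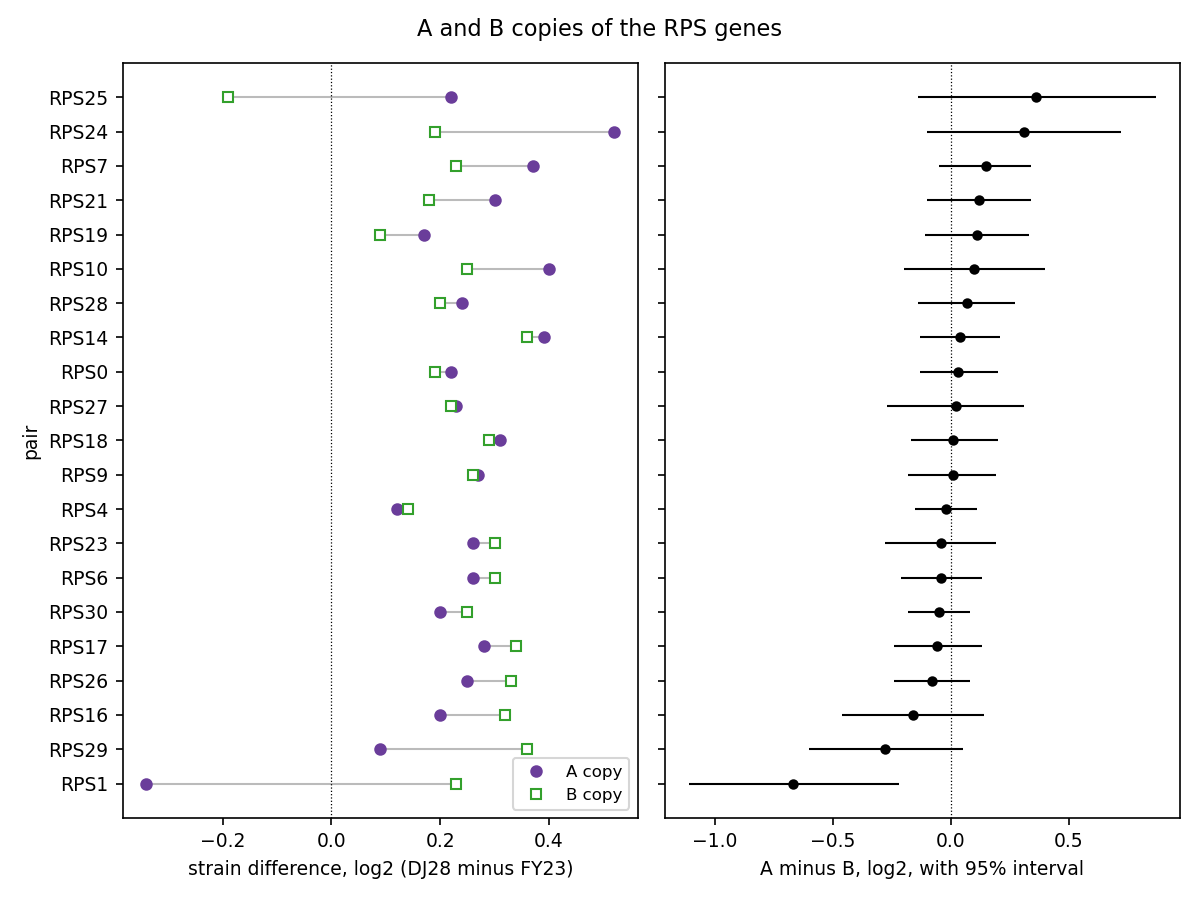
Strain difference of the A and the B copy (left panel, log2, DJ28 minus FY23) and A minus B with its 95% interval (right panel, log2) in 21 of the 23 RPS pairs tested, ordered by A minus B. The interval includes 0 in 20 of the pairs shown and lies below it in RPS1. The intervals are not adjusted for the number of pairs.

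Of the 23 pairs 4 differed by more than 0.3 between copies, RPS1, RPS25 and RPS24 among them, and in these a single copy left the common pattern. RPS1A (YLR441C) had turned ratios of -0.75, -0.45 and -0.60 with DJ28 in Cy5, with no value on array 9, and -0.09, -0.35, 0.01, 0.44 and -0.39 with DJ28 in Cy3. RPS1B (YML063W) had 1.74, 1.30, 0.37 and 0.40 with DJ28 in Cy5 and -0.53, -0.47, -0.98, -0.38 and -0.07 with DJ28 in Cy3. RPS1A thus lies below RPS1B on every shared array with DJ28 in Cy5 and above it on arrays 1 to 4. A minus B was -0.67 with a standard error of 0.195 and an interval from -1.11 to -0.22 (limma over all A and B pairs, adjusted p = 0.471), as the mean of -1.75 with DJ28 in Cy5 and 0.41 with DJ28 in Cy3. RPS1A alone had the lowest strain difference of all RPS genes at -0.34 (standard error 0.119, adjusted p = 0.292), below 0 on 6 of 8 replicates.

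RPS25B (YLR333C) had -0.52, 0.07, -0.47 and 0.09 with DJ28 in Cy5 and -0.53, -0.84, -0.47, 0.63 and 0.34 with DJ28 in Cy3. Its values do not separate by orientation, and arrays 4 and 5 are its highest. RPS25A (YGR027C), with 1.77, 0.82, 0.43 and 0.65 with DJ28 in Cy5 and -0.82, -0.48, -0.73 and 0.10 on arrays 2 to 5, followed the common pattern, and A minus B was 0.36, from -0.14 to 0.87.

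RPS24A (YER074W) had the largest strain difference of the RPS genes. Its turned ratios were -0.25, -0.28, 0.77 and 0.70 with DJ28 in Cy5 and 0.25, 0.43, 0.98 and 1.54 on arrays 2 to 5, with no value on array 1. They are above 0 on 6 of 8 replicates, and the exceptions are the mean of arrays 6 and 7 and array 8. The strain difference was 0.52, or 1.43-fold (standard error 0.178, adjusted p = 0.284). On arrays 4, 5, 9 and 10 alone it was 1.00 and passed the test (standard error 0.123, adjusted p = 0.0493), and it also passed with array weights, at 0.72 (adjusted p = 0.0454). It was the only RPS gene past the strain test in either of these fits, which called 30 of 5492 genes on the 4 arrays and 113 of 5642 with array weights. With array weights 1 of 53 is near the share over all genes.

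RPS24B (YIL069C) had 1.11, 0.81, 0.66 and 0.54 with DJ28 in Cy5, against -0.62, -0.67, -0.59, -0.34 and 0.17 with DJ28 in Cy3, and followed the common pattern. A minus B of this pair was 0.31, from -0.10 to 0.72 (adjusted p = 0.724), and on arrays 4, 5, 9 and 10 alone it was 0.74 and passed (standard error 0.124, adjusted p = 0.000869 over the pairs tested). Those arrays were set together by their values at the upper limit and not by a label, and whether the difference between array sets is larger than the spread was not tested.

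**Figure D4:**
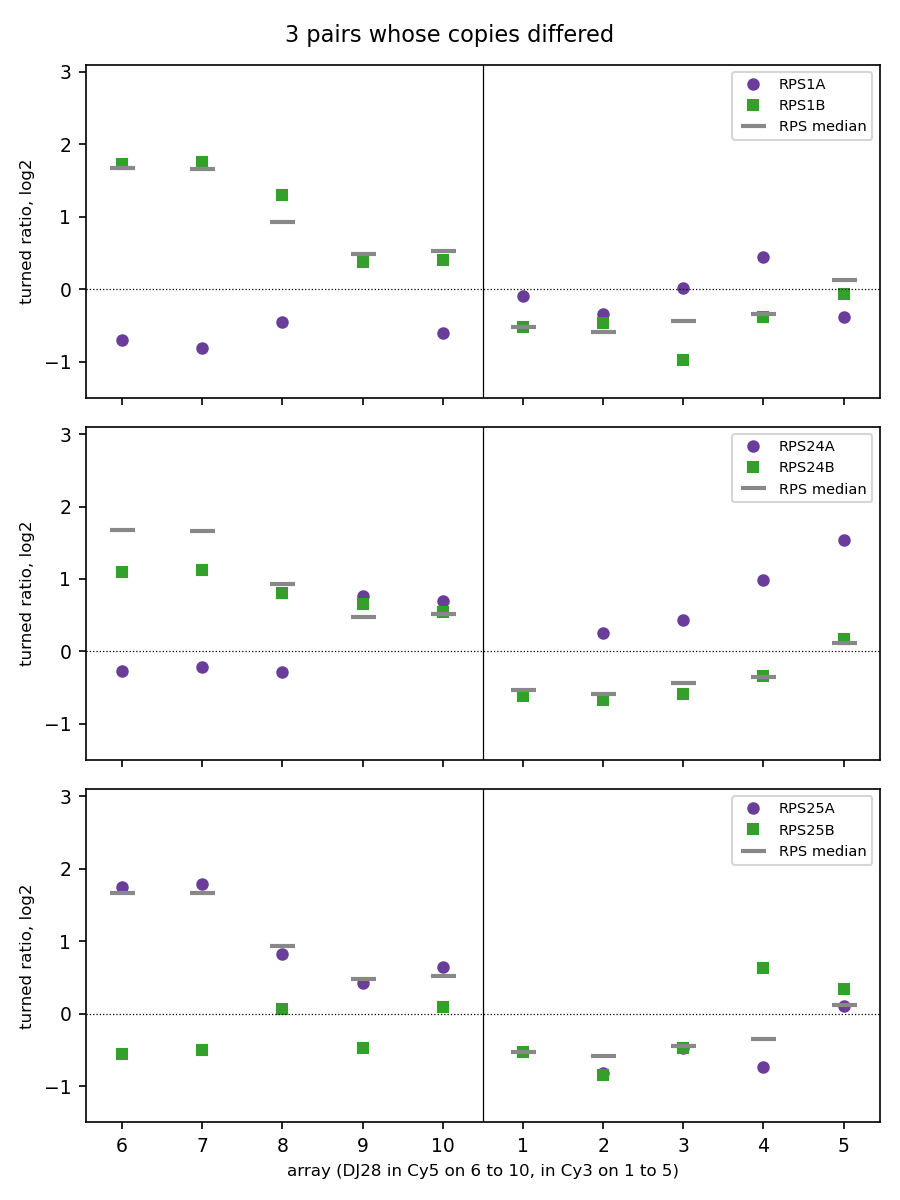
Turned log2 ratio (vertical axis) on each array (horizontal axis) of the A copy (circles) and the B copy (squares) of 3 of the 4 RPS pairs with the largest A minus B, with the median of the RPS genes as grey bars. RPS1B, RPS24B and RPS25A lie nearer the bars on most arrays, though RPS24B is below them on arrays 6 and 7. On array 3 RPS1A lies nearer than RPS1B. RPS1A, RPS24A and RPS25B lie below the bars on arrays 6 to 8, with DJ28 in Cy5, and above them on array 4, with DJ28 in Cy3. RPS24A also lies above them on arrays 2, 3, 5, 9 and 10, RPS1A on arrays 1 to 3, and RPS25B on array 5.

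A minus B of the dye term was -1.08 for RPS1 (limma, adjusted p = 0.0130) and -0.85 for RPS24 (adjusted p = 0.0250). In all 3 of 23 RPS pairs passed, where 10.3% of all A and B pairs did, so the RPS share is near that of all pairs. For RPS25 it was 0.76 (adjusted p = 0.0536).

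At the ends of the list of strain differences lay also RPS10A, RPS14A and RPS19B. RPS10A (YOR293W) had 2.16, 1.19, 0.72 and 0.59 with DJ28 in Cy5 and -0.91, -0.81, 0.11 and 0.19 on arrays 2 to 5, which gave a strain difference of 0.40 (standard error 0.195, adjusted p = 0.392). RPS14A (YCR031C) had 1.90, 0.93, 0.76 and 0.78 with DJ28 in Cy5 and -0.27, -0.57, -0.37, -0.44 and 0.14 with DJ28 in Cy3, which gave 0.39 (standard error 0.132, adjusted p = 0.275). Both are above 0 on each replicate with DJ28 in Cy5. RPS19B (YNL302C), whose protein is needed to process the precursor of the 18S rRNA, had 1.30, 0.25, 0.03 and 0.55 with DJ28 in Cy5 and -0.87, -0.08, -0.59 and 0.10 on arrays 2 to 5, and its difference of 0.09 was among the smallest (adjusted p = 0.827).

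Lists of genes that work with these proteins were set beside them. The 80 genes of the large subunit (RPL and RPP) had a median strain difference of 0.26 with 0 past the strain test, and a median dye term of 0.58 with 28 past its test. Their 2 largest strain differences were those of RPL35B at 0.39 and RPL18B at 0.37. The mitochondrial small subunit, whose proteins serve a separate ribosome, had a median strain difference of 0.15 over 20 genes tested and a median dye term of 0.12, with 1 past the dye test. MRPS8 at 0.46 and MRPS17 at 0.41 had its largest strain differences.

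Among 30 genes of 40S maturation 0 passed either test, with 23 positive strain differences and a median of 0.11. Their median dye term was -0.06, and its difference from that of the RPS genes was not tested. IMP4 and ENP1, which act in early processing of the rRNA, had strain differences of 0.67 (adjusted p = 0.182) and 0.62 (adjusted p = 0.444). The list median was above 0 on 9 of 9 replicates, against 5 of 9 for the RPS genes. Of 14 factors that bind the finished subunit 0 passed the strain test, with a median of 0.11, TIF35 at 0.38 and STM1 at 0.32, and STM1, a ribosome-bound protein, had a dye term of 0.61 (adjusted p = 0.0393). The 17 regulators of ribosomal protein genes had a median of -0.00 and 0 past either test, with SCH9, a kinase of nutrient signalling, at -0.43 (adjusted p = 0.275) and ESA1 at 0.24.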

How the data were processed

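The deposited table of the authors holds 1 log2 ratio of the 2 dyes per row and array, for 6277 rows and 10 arrays. The values themselves give the scale: 13 cells sit at a limit of 16.61, the log2 of 100000, and 0 of these in RPS genes. The sources used here do not state background correction, normalization or spot filters, and array medians run from -0.498 to 1.383. The platform annotation names 5663 rows with 1 symbol and leaves 614 unnamed, and 5659 matched assembly R64 by gene identifier.

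Values at the limit were set to missing, arrays centred on their medians, and rows of a gene averaged. The 5642 genes measured on 3 or more replicates in both orientations entered a limma fit (version 3.58.1, R 4.3.3) with a strain and a dye term, and p-values were Benjamini-Hochberg adjusted over all genes. A minus B was fitted in the same way over all 58 pairs of symbols that differ only in a final A or B. The code was tested on simulated data. Precision is limited by the number of arrays.

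The RPS genes and the lists were chosen with earlier results of these data known. Genes given on every array are those past either test (up to 6), the 4 largest and 4 smallest strain differences, and the 4 pairs with the largest A minus B. Genes with no A or B, untested RPS genes and the 2 largest absolute strain differences of each other list are named too. Some genes and pairs that this rule takes in are not reported here by name.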

Additional observations from a re-analysis of the deposited data

Results flagged for a closer look

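Of 19 named genes and 2 medians checked within each orientation, 3 genes had an array far from the others, where chance flags about 1 in 20 groups. Each orientation of a gene or median is a group of its own, so groups outnumber genes. The genes share the same arrays, so their flags are not independent. RPS14A stood at 1.90 on the mean of arrays 6 and 7, against 0.93 for the next replicate with DJ28 in Cy5. On array 5, RPS20 stood at 0.19 and RPS3 at 0.02, against -0.44 and -0.45 for the nearest arrays with DJ28 in Cy3.

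The turned ratios differed between the dye orientations, by the test of the dye term, in 26 of 53 RPS genes, where 2.82% of all genes did. The fit held a single strain term for both orientations. In this design a strain difference that varied with the orientation could not be told apart from the dye term. Among the named genes the dye terms past the test were 0.72 for RPS27A, 0.73 for RPS14B, 0.88 for RPS26B, 0.82 for RPS12, 0.79 for RPS7A, 0.93 for RPS15, 0.70 for RPS14A, 0.72 for RPS1B, 0.70 for RPS25A, 0.59 for RPS24B, 0.66 for RPS20 and 0.76 for RPS3.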

How the results depend on the processing

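The count of 0 RPS genes past the strain test was 1, RPS24A, with array weights and on arrays 4, 5, 9 and 10 alone, and 0 in the other fits. Several of those could hardly call any gene and say nothing on stability: DJ28 in Cy5 alone called 2 of 5941 genes, DJ28 in Cy3 alone 0 of 5738, and arrays 1, 2, 3, 6, 7 and 8 called 0 of 2143. The fits of a single orientation held no dye term, so strain and dye cannot be told apart in them. The count of RPS pairs past A minus B was 1, RPS24, on arrays 4, 5, 9 and 10 alone. The count of 26 RPS genes past the dye test, of 172 genes in all, moved together with the count over all genes. It was 47 of 623 with all 10 arrays counted apart, 49 of 3041 with no centring, 42 of 735 with a dye term in each array set, 15 of 121 with array weights and 9 of 50 with arrays centred on genes measured on all 10. It was 3 of 25 without arrays 6 and 7, 0 of 0 without arrays 1 and 2 and 0 of 16 on arrays 4, 5, 9 and 10, and from 2 to 35 with single arrays left out. With no centring the median dye term was 1.219 (0.60 over all genes), and the mean medians were 1.542 with DJ28 in Cy5 and -0.823 with DJ28 in Cy3.

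Among the named genes signs turned in RPS19B, which was -0.041 without arrays 6 and 7, and in RPS25B. RPS25B was 0.145 on arrays 4, 5, 9 and 10. Why these values moved was not tested, other than that fewer arrays enter where some are left out. Spot intensities were not used here, so signal over background could not be set beside these values.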
